A study of Arabidopsis thaliana with 8 samples.

Results

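Fasciclin-like arabinogalactan proteins (FLAs) are glycoproteins of the plant cell wall and plasma membrane. The 10 loci described here are FLA1 (AT5G55730), FLA2 (AT4G12730), FLA6 (AT2G20520), FLA7 (AT2G04780), FLA8 (AT2G45470), FLA9 (AT1G03870), FLA10 (AT3G60900), FLA11 (AT5G03170), FLA12 (AT5G60490) and FLA13 (AT5G44130). They were chosen by name, with earlier results of these data known, and found on the array through the transcript accession of each probe. They had 19 probes and are 10 of the 25410 loci that the array's probes could be assigned to. The transcripts came from guard cell preparations of Arabidopsis thaliana leaves and were measured on 8 one-colour arrays, 2 for each of 4 groups. The groups were bam1 plants after heat, Col-0 plants after heat, bam1 plants under control conditions and Col-0 plants under control conditions. Col-0 is the wild type, and bam1 is a single T-DNA insertion line in the same background that lacks the plastid β-amylase BAM1, an enzyme of starch breakdown. Heat meant 32 °C by day and 28 °C by night for 3 days, and control plants stayed at 22 °C by day and 18 °C by night. All plants were 5 weeks old and were harvested at the end of the light period. Each array held RNA of 5 to 8 pooled plants, so that the spread between arrays is a spread between pools. The preparations were epidermal fragments obtained in a blender after the major veins had been cut out, and other leaf cells can remain in them.

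FLAs join fasciclin domains, which are adhesion domains found from bacteria to animals, to stretches that are decorated with arabinogalactan sugar chains, and many are tethered to the plasma membrane by a lipid anchor. FLA1, FLA2, FLA8 and FLA10 carry a pair of fasciclin domains, while FLA6, FLA7, FLA9, FLA11, FLA12 and FLA13 carry a single domain. The family is known from cell expansion, cell adhesion and wall building, and FLA11 and FLA12 from the secondary walls of the stem, where plants without them have altered cellulose and weaker stems. The guard cell wall has to stretch and recoil at every stomatal movement.

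On each array, the signal was well above background for 61.3% to 70.8% of the 43603 probes. BAM1 gave a signal of 154.6 and 209.6 in bam1 after heat, 4297 and 4699 in Col-0 after heat, 108.5 and 76.22 in bam1 control and 3531 and 2090 in Col-0 control. The mutant arrays lay below all wild-type arrays, as the labels say. All 7 heat shock protein loci examined were higher after heat in both genotypes. Under heat all 7 also had positive differences of bam1 from Col-0, with a median of 2.285 on the log2 scale and 0 called. Their summed log2 signal was 16.762 to 17.072 in bam1 after heat and 15.035 to 15.63 in Col-0 after heat. It was 9.554 to 9.858 in bam1 control and 9.586 to 9.646 in Col-0 control. The part of this in member differences between the genotypes was not tested. The 12 guard cell markers examined were above background on all 8 arrays, and their summed signal was 15.46 to 15.572 on the log2 scale in bam1 after heat, 15.699 to 15.872 in Col-0 after heat, 15.898 to 16.322 in bam1 control and 16.538 to 16.563 in Col-0 control. Most of this sum came from the brightest marker, TGG1, at 15.19 and 14.99 in bam1 after heat.

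Of the 10 loci, 8 were tested, and each of these stood well above background on every array. FLA6 and FLA10 were not well above background on any array. Levels are given as quantile-normalised log2 signal, and a locus with several probes is given by its brightest probe. A locus was called changed where the limma test gave an adjusted P-value below 0.05, adjusted over all 29618 probes tested, and the change was over 2-fold. Heat lowered 4 of the 8 tested loci and raised 1 in bam1, and lowered 3 and raised 0 in Col-0. In bam1, 11.5% of all loci tested were called lower and 11.5% higher, and in Col-0 the shares were 10.5% lower and 11.7% higher. The median log2 change of the 8 loci was -1.07 in bam1 and -0.72 in Col-0, against 0.03 and 0.02 over all 18470 loci tested. Because the members were chosen with earlier results of these data known, these shares and medians are a description and no test against all loci. The 3 loci lower in Col-0, FLA2, FLA7 and FLA13, were also lower in bam1. No member was called in any comparison between the genotypes.

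**Figure D1:**
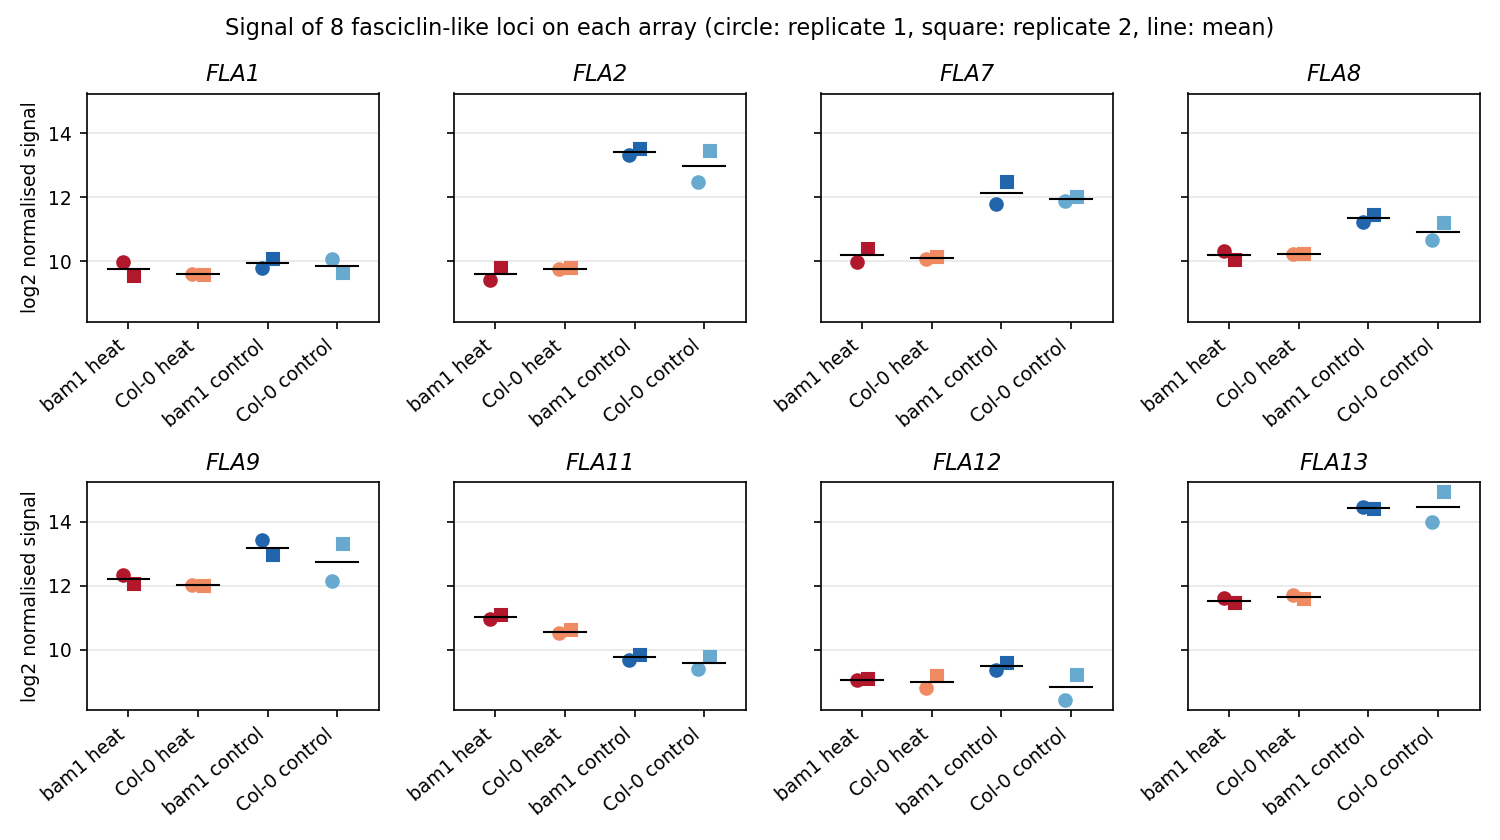
Quantile-normalised log2 signal (y axis) of the 8 tested loci in the 4 groups (x axis), with a circle for replicate 1, a square for replicate 2 and a line for the mean. FLA2, FLA7 and FLA13 lie lower on all 4 heat arrays than on all 4 control arrays, FLA11 lies higher on all 4 heat arrays, and FLA1 and FLA12 overlap.

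Of the members with paired fasciclin domains, FLA2 fell the most. Its log2 signal was 9.43 and 9.79 in bam1 after heat and 9.75 and 9.78 in Col-0 after heat. It was 13.32 and 13.51 in bam1 control and 12.49 and 13.44 in Col-0 control. The 4 heat arrays lay close together, and every one of them was below every control array. In bam1 the change was -3.80 (SE 0.31), 14-fold lower, with an adjusted P of 0.000548. In Col-0 it was -3.20 (SE 0.31), 9.18-fold lower, with an adjusted P of 0.001. Only 86 of the 18470 loci tested had a more negative change in bam1, and 116 in Col-0.

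FLA2 was read by 5 probes, which differed in brightness. The 3 brightest gave log2 changes between -3.84 and -3.66 in bam1 and between -3.42 and -3.20 in Col-0. The fourth was not well above background on any heat array, so that it gave only a bound, at least 13.1-fold lower in bam1 (adjusted P 0.00101) and at least 7.02-fold lower in Col-0 (adjusted P 0.00327). For such a bound, each heat array entered with the lowest signal that counted as well above background there, or with the probe's value where that was higher. In Col-0 the probe's values were the higher on both heat arrays, so that the figure equals the fitted change. The dimmest probe, with a signal of 18.03 to 32.64 on the heat arrays and 41.79 to 93.35 on the control arrays, gave smaller changes of -1.51 in bam1 (adjusted P 0.0679) and -1.70 in Col-0 (adjusted P 0.0479). It was well above background on only 1 heat array of each genotype. All 5 probes thus had lower values after heat, and 1 of them missed the threshold in bam1.

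**Figure D2:**
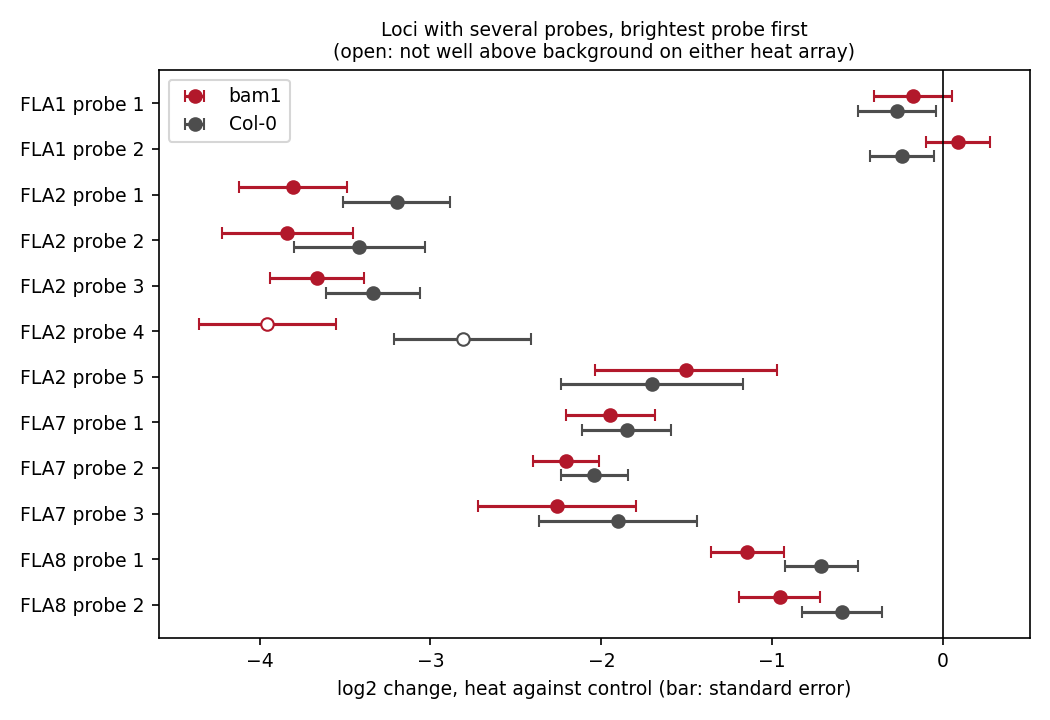
Log2 change after heat (x axis, bar: standard error) for each tested probe of the loci with several probes, in bam1 (red) above Col-0 (grey), the brightest probe of a locus first and open points where neither heat array was well above background. The FLA7 probes lie between -2.26 and -1.85 and the FLA8 probes between -1.14 and -0.59, while the dimmest FLA2 probe changed less than the other FLA2 probes.

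FLA8 fell less. It is the close relative of FLA10 in the family. Its log2 signal was 10.34 and 10.05 in bam1 after heat, 10.22 and 10.22 in Col-0 after heat, 11.24 and 11.44 in bam1 control and 10.68 and 11.18 in Col-0 control. The groups did not overlap in either genotype, and the 4 heat arrays were nearly level. The fall was called in bam1, with a log2 change of -1.14 (SE 0.21, 2.21-fold, adjusted P 0.00807). In Col-0 the change of -0.71 (SE 0.21, 1.64-fold) had an adjusted P of 0.0421 but did not reach 2-fold. The second FLA8 probe gave -0.96 in bam1, which is 1.94-fold and was not called, and -0.59 in Col-0 (adjusted P 0.0949). The difference between the genotypes in this response was -0.43 (SE 0.30, adjusted P 0.999), so that the call in bam1 alone does not show that the genotypes differed.

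FLA1, which is known to act in the regeneration of shoots from cultured tissue, showed no change that passed the test. Its 8 values lay between 9.55 and 10.09 on the log2 scale. The log2 change after heat was -0.18 in bam1 (SE 0.23, adjusted P 0.585) and -0.27 in Col-0 (SE 0.23, adjusted P 0.403), and the second probe gave 0.09 and -0.24. The bam1 groups overlapped at both probes, while the Col-0 groups did not overlap at either. FLA10 had a background-corrected signal of 4.567 to 11.49 over the 8 arrays, not well above background on any, and no fold is given for it. Of the 4 loci with paired fasciclin domains, 2 were thus lower in bam1 and 1 in Col-0, and 1 was not tested.

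Of the members with a single fasciclin domain, FLA13 changed the most. Its log2 signal was 11.63 and 11.46 in bam1 after heat and 11.72 and 11.57 in Col-0 after heat. It was 14.48 and 14.40 in bam1 control and 13.99 and 14.92 in Col-0 control. Heat and control arrays did not overlap in either genotype, and the genotypes were close in each condition. The change was -2.90 in bam1 (SE 0.30, 7.45-fold lower, adjusted P 0.00104) and -2.81 in Col-0 (SE 0.30, 7-fold lower, adjusted P 0.00127). On the 2 slides, each of which held 1 array of every group, the change was -2.85 and -2.95 in bam1 and -2.27 and -3.35 in Col-0. Only 1 probe read this locus.

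FLA7 was read by 3 probes that moved together. The brightest had a log2 signal of 9.98 and 10.39 in bam1 after heat, 10.07 and 10.14 in Col-0 after heat, 11.79 and 12.48 in bam1 control and 11.89 and 12.02 in Col-0 control. Every heat array lay below every control array. The change was -1.95 in bam1 (SE 0.26, 3.86-fold lower, adjusted P 0.0025) and -1.85 in Col-0 (SE 0.26, 3.61-fold lower, adjusted P 0.00309). The other probes gave -2.21 and -2.26 in bam1 and -2.04 and -1.91 in Col-0, all of them called.

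FLA9 belongs to the same single-domain group and did not pass the test. Its log2 signal was 12.35 and 12.06 in bam1 after heat, 12.04 and 11.98 in Col-0 after heat, 13.43 and 12.96 in bam1 control and 12.17 and 13.31 in Col-0 control. The heat arrays lay below the control arrays in both genotypes, but the Col-0 control arrays were far apart. The log2 change was -0.99 in bam1 (SE 0.38, adjusted P 0.0836) and -0.73 in Col-0 (SE 0.38, adjusted P 0.181). Within slides the Col-0 change was -0.12 and -1.33. Without Col-0 control replicate 1 it was -1.30, with an adjusted P of 0.0222, past the threshold.

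FLA11 was the only member called higher after heat, and only in bam1. Its log2 signal was 10.97 and 11.09 in bam1 after heat, 10.52 and 10.61 in Col-0 after heat, 9.69 and 9.84 in bam1 control and 9.39 and 9.79 in Col-0 control. The heat arrays lay above the control arrays in both genotypes. The log2 change in bam1 was 1.26 (SE 0.18, 2.4-fold, adjusted P 0.00316). In Col-0 the change of 0.98 (SE 0.18) had an adjusted P of 0.00785 and was 1.97-fold, just under the fold limit. It passed the limit in Col-0 without Col-0 heat replicate 1 (1.03, adjusted P 0.0416) or without Col-0 control replicate 2 (1.18, adjusted P 0.011). The difference between the responses was 0.28 (SE 0.26, adjusted P 0.999).

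FLA12, the closest partner of FLA11 in stem secondary walls, gave no change that passed the test. Its log2 signal was 9.05 and 9.08 in bam1 after heat, 8.80 and 9.18 in Col-0 after heat, 9.37 and 9.60 in bam1 control and 8.44 and 9.21 in Col-0 control. The log2 change after heat was -0.42 in bam1 (SE 0.28, adjusted P 0.282) and 0.16 in Col-0 (SE 0.28, adjusted P 0.684). The Col-0 groups overlapped, while the bam1 groups did not. FLA6 had a background-corrected signal of 2.85 to 21.27 at its brightest probe, not well above background on any array, and its second probe was likewise dim. Of the 6 single-domain loci, 2 were thus lower and 1 higher in bam1, 2 were lower in Col-0, and 1 was not tested.

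**Figure D3:**
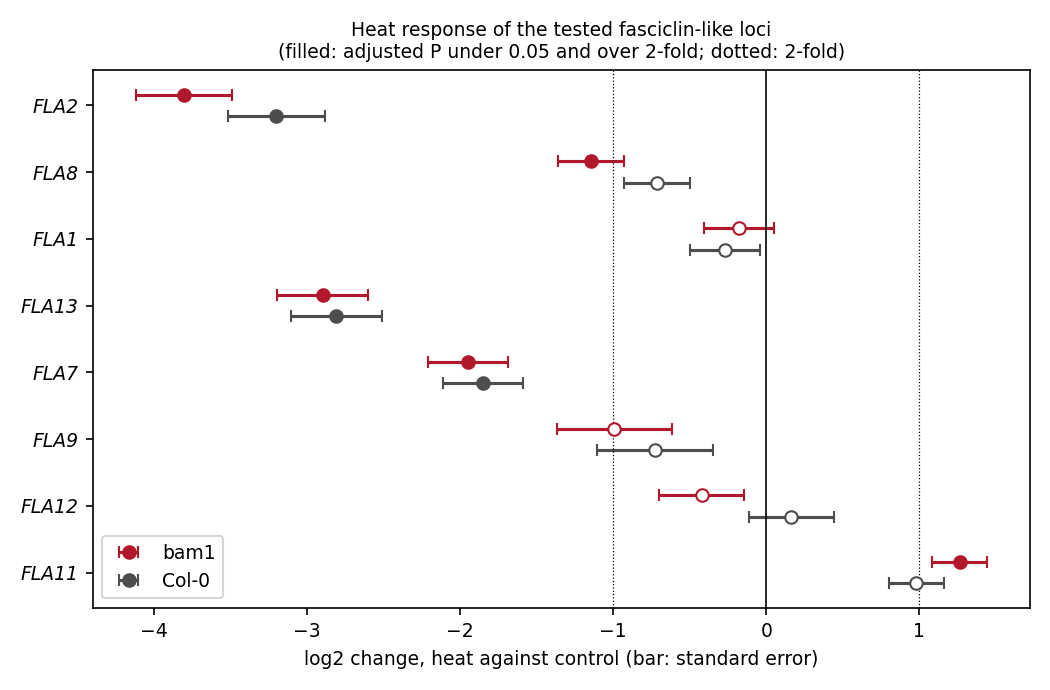
Log2 change after heat (x axis, bar: standard error) of the tested loci, those with paired fasciclin domains (FLA2, FLA8, FLA1) above those with a single domain, in bam1 (red) above Col-0 (grey), with filled points for called changes and dotted lines at 2-fold. FLA2, FLA13 and FLA7 lie far below 0 in both genotypes, and FLA8 and FLA11 are filled in bam1 and open in Col-0.

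Markers of the xylem's secondary walls were read beside FLA11. Of 11 such markers, 5 were called higher and 0 lower in bam1 after heat, and 3 higher and 0 lower in Col-0. Their median log2 change was 1.52 in bam1 and 0.57 in Col-0. CESA7, a cellulose synthase of secondary walls, rose by 1.54 in bam1 (adjusted P 0.00333) and by 1.03 in Col-0 (adjusted P 0.0143). MYB46, a regulator that switches on secondary wall genes, was not well above background on the control arrays and was at least 4.31-fold higher in bam1 (adjusted P 0.00244) and at least 2.86-fold higher in Col-0 (adjusted P 0.00793). Its control values entered these figures as measured, since they exceeded the lowest signal that counted as well above background. IRX9, which helps to build the xylan backbone, was at least 3.59-fold higher in Col-0 (adjusted P 0.0192), where the control arrays were not well above background, while in bam1 its log2 change of 1.60 had an adjusted P of 0.0745. In each genotype 10 of the 11 markers had positive changes. The exception was XCP1, a protease of xylem vessels, with log2 changes of -0.19 in bam1 (adjusted P 0.73) and -1.004 in Col-0 (adjusted P 0.0832). CTL2, a chitinase-like protein of secondary walls, had 0.74 (adjusted P 0.114) and 0.09 (adjusted P 0.852). XCP1 and CTL2 were picked out here with their values already known.

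The summed signal of the 11 markers was 11.858 to 12.072 on the log2 scale in bam1 after heat, 11.49 to 11.641 in Col-0 after heat, 10.656 to 11.098 in bam1 control and 11.107 to 11.13 in Col-0 control. Like FLA11, it was higher after heat in each genotype, which holds for any locus that rises with heat. Under control conditions the sum was lower in bam1 than in Col-0. The FLA11 mean there was 9.76 in bam1 and 9.59 in Col-0, with overlapping arrays. A large part of the sum came from XCP2, at 10.42 and 10.59 in bam1 after heat, and LAC4, at 9.57 and 9.60. Of the 11, 8 were above background on all 8 arrays and 0 on none. The part of these cells in the FLA11 result was not tested. In such bulk samples, a changed share of cells of a type and a changed amount of RNA per cell cannot be told apart.

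**Figure D4:**
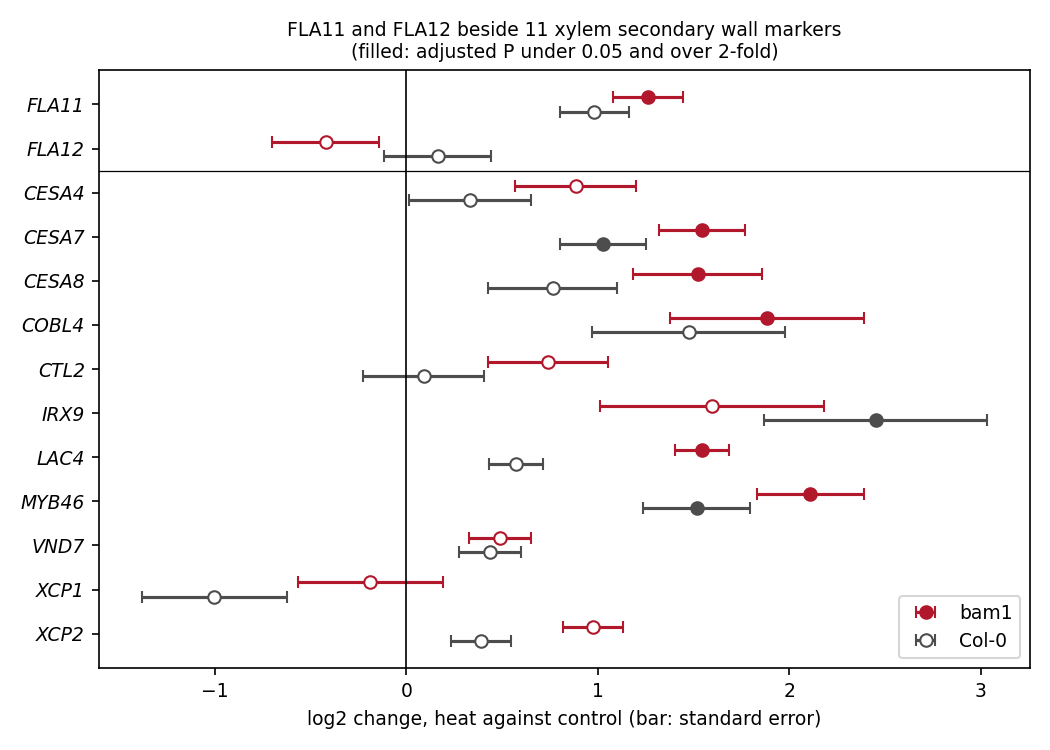
Log2 change after heat (x axis, bar: standard error) of FLA11 and FLA12 above the line and of 11 xylem secondary wall markers below it, in bam1 (red) above Col-0 (grey), with filled points for called changes. FLA11 lies at 1.26 and 0.98, among markers such as CESA7, whereas FLA12 lies at -0.42 and 0.16.

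Markers of other cells were also read beside the members that fell. The guard cell markers had a median log2 change of -0.34 in bam1, with 0 of 12 called, and of -0.70 in Col-0, with 3 of 12 called lower and 0 higher. Those 3 were KAT1, an inward potassium channel (-1.58), SLAC1, the anion channel of stomatal closure (-1.51), and HT1, a kinase of the carbon dioxide response (-1.20). In Col-0 the changes of FLA2, FLA7 and FLA13 were -3.20, -1.85 (SE 0.26) and -2.81. They were not tested against those of the markers, where SE was 0.22 for KAT1 and 0.44 for SLAC1. Among 8 epidermis markers 0 were called in bam1 and 2 were lower in Col-0, CER6 and PDF1, at -1.14 and -1.11. The median change was -0.37 in bam1 and -0.50 in Col-0, and the summed signal was 16.757 to 16.903 in bam1 after heat, 16.122 to 16.998 in Col-0 after heat, 16.27 to 16.335 in bam1 control and 16.422 to 16.664 in Col-0 control. The brightest marker, LTP1, made up a large part of this sum, at 16.53 and 16.15 in bam1 after heat and 15.54 and 14.99 in bam1 control. Of the 8 markers, 2 had positive changes in bam1 and 1 in Col-0.

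Of 10 mesophyll markers 1 was lower in each genotype, LHCB2.1, at -2.98 in bam1 and -3.06 in Col-0. The median mesophyll change was -0.16 in bam1 and 0.06 in Col-0, with positive changes for 4 of the 10 in bam1 and 6 in Col-0. The summed mesophyll signal lay between 19.708 and 19.939 over all 8 arrays. Most of this sum came from the bright markers RBCS1A, RBCS2B, CAB1 and RCA, with CAB1 at 17.67 and 17.26 in bam1 after heat. Of 6 phloem markers 1 was higher and 2 lower in bam1, and 2 were higher and 2 lower in Col-0. In Col-0 these were the sugar exporters SWEET12 (1.88) and SWEET11 (1.33), the sucrose carrier SUC2 (-1.34) and the sieve element protein SEOR1 (-1.28). The median phloem change was 0.32 in bam1 and -0.06 in Col-0. The part of these cell types in the fall of FLA2, FLA7, FLA8 and FLA13 was not tested.

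Between the genotypes, 0 of the 8 tested members were called. Under heat, 0% of all loci tested were called, and 0.00541% under control conditions and for the difference of the heat responses. Under heat the log2 differences of bam1 from Col-0 ran between -0.16 (FLA2) and 0.46 (FLA11). FLA11 was the only member with an unadjusted P below 0.05 (difference 0.46, SE 0.18, P 0.0414 in limma, adjusted P 1). In the same comparison 10 of the 11 xylem markers had positive differences, with a median of 0.41 and 0 called. Under control conditions only 1 of the 11 had a positive difference, with a median of -0.20 and 0 called. The FLA11 difference there was 0.18 (SE 0.18). The part of the xylem markers in the FLA11 differences was not tested. Under control conditions the differences ran between -0.01 (FLA13) and 0.66 (FLA12), and 0 members had an unadjusted P below 0.05. FLA12 came closest, with SE 0.28 and an unadjusted limma P of 0.0539 (adjusted P 1). The FLA8 difference there was 0.41 (SE 0.21, adjusted P 1). Both values depended on the Col-0 control arrays. Without Col-0 control replicate 1 the difference was 0.27 for FLA12 and 0.16 for FLA8, and without replicate 2 it was 1.04 and 0.66, none of them called. Under control conditions 0 of the 12 guard cell markers had a positive difference, with a median of -0.70 and 0 called, and their part in these differences was not tested.

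The differences of the heat responses, bam1 minus Col-0, ran between -0.61 (FLA2, SE 0.45) and 0.28 (FLA11), with an adjusted P of 0.999 for all 8 members and 0 unadjusted P below 0.05. FLA12 had -0.59 (SE 0.40). At the brightest probe, the difference of the responses was negative on both slides for FLA12 (-0.68 and -0.49), FLA8 (-0.45 and -0.42) and FLA2 (-1.15 and -0.06). It was positive on both for FLA11 (0.14 and 0.42) and changed sign between slides for the other tested members. For FLA2 it also changed sign at the second probe (-1.28 and 0.44), the third (-1.07 and 0.42) and the dimmest (-0.48 and 0.88). At the fourth FLA2 probe, not well above background on any heat array, it was -1.01 and -1.28. Without Col-0 control replicate 1 the difference of the responses was -0.13 for FLA2 and -0.20 for FLA12, and without replicate 2 it was -1.08 and -0.97. For FLA8 it was -0.18 and -0.69, and for FLA11 0.48 and 0.08. The methods' t-test, run within each condition, also called 0 members between the genotypes. In Col-0 control, 7 of the 8 tested members were lower in replicate 1 than in replicate 2, with a median difference of -0.64, where 56.1% of all loci tested were lower in replicate 1. In the other groups the median difference between replicates lay between -0.19 and 0.07.

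The order of the 4 groups differed among the members. For FLA2, FLA7 and FLA13 both control groups lay above both heat groups, and the genotypes overlapped within each condition. For FLA8 too, both control groups lay above both heat groups, but only the heat groups of the genotypes overlapped. For FLA8 and FLA9 the bam1 control mean was the highest, followed by the Col-0 control mean, although for FLA9 Col-0 control overlapped with both bam1 groups. For FLA11 the order was bam1 heat, Col-0 heat, bam1 control and Col-0 control, and the last 2 overlapped.

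The loci outside the family most like FLA13 were sought over the 4 centred group means. FLA13 was taken because its probe was the brightest among the called members, which is a rule of choice only, since brightness does not compare levels between probes. Among 16432 loci above background on all 8 arrays, the closest was AT5G16940, at a root mean square difference of 0.0349 on the log2 scale. Its group means were 7.14 in bam1 heat, 7.33 in Col-0 heat, 10.12 in bam1 control and 10.09 in Col-0 control. It was followed by GA2, the ent-kaurene synthase of gibberellin synthesis, at 0.0598, and OEP6, a protein of the outer plastid envelope, at 0.0884. AT2G44580 (0.0935) and AT5G18430 (0.094) came next. With only 4 points a close fit is a description and no evidence of a link.

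Of the 11 other FLA loci, 5 could be tested, all of them above background on all 8 arrays, and 0 were called in either genotype. These 5 had negative log2 changes, with a median of -0.63 in bam1 and -0.61 in Col-0. The values ran from -0.84 to -0.28 in bam1 and from -0.99 to -0.13 in Col-0. In each genotype FLA4, whose loss swells root tips under salt, was the smallest. In bam1 FLA16 (-0.71, adjusted P 0.0301) and FLA18 (-0.84, adjusted P 0.0302), and in Col-0 FLA15 (-0.99, adjusted P 0.045), had an adjusted P below 0.05 without reaching 2-fold. These were named after their values were seen. FLA3, which is known from pollen, FLA20 and FLA21 were well above background on 0 arrays, FLA19 on 1, and FLA5 and FLA14 on 2, so that none of these was tested. FLA5 had log2 values of 4.10 and 4.23 in bam1 after heat, 4.37 and 3.84 in Col-0 after heat, 2.18 and 2.33 in bam1 control and 2.38 and 2.32 in Col-0 control. Its heat values were all above its control values, at signals mostly not well above background.

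Arabinogalactan proteins without fasciclin domains changed in both directions. Of 30 loci, 23 were tested. In bam1 3 were higher and 8 lower, and in Col-0 2 were higher and 6 lower. The median log2 change was -0.68 in bam1 and -0.36 in Col-0. AGP21 and AGP16, which encode short arabinogalactan peptides, fell, with log2 changes of -3.76 and -2.59 in bam1 and of -2.94 and -2.08 in Col-0. AGP17, a lysine-rich protein needed for root transformation by Agrobacterium, fell by 3.16 in bam1 (adjusted P 0.0145) and by 2.84 in Col-0 (adjusted P 0.0217). AGP31, which joins a proline-rich stretch to an arabinogalactan region, rose by 2.40 in bam1 (adjusted P 0.000254) and by 2.64 in Col-0 (adjusted P 0.000274).

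Enzymes that prepare and build the arabinogalactan chains were also read, the first group being prolyl 4-hydroxylases, which modify the protein backbone where sugars are then attached. Of the 11 loci, 9 were tested, with 0 higher and 2 lower in each genotype. FUT4, a fucosyltransferase, was at least 6.81-fold lower in bam1 (adjusted P 0.0108), where it was not well above background after heat, and fell by 2.04 on the log2 scale in Col-0 (adjusted P 0.0325). GLCAT14B, which adds glucuronic acid, fell by 1.17 in bam1 (adjusted P 0.00577) and by 1.48 in Col-0 (adjusted P 0.00269). The hydroxylases P4H2 and P4H5, named after their values were seen, had log2 changes of 0.81 and -0.95 in bam1 and 0.87 and -0.92 in Col-0, each with an adjusted P below 0.05 but under 2-fold. The median change over the 9 was -0.15 in bam1 and -0.26 in Col-0. In the comparisons between the genotypes, 0 of the 5 other FLA loci, 0 of the 23 arabinogalactan proteins and 0 of the 9 enzymes were called.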

How the data were processed

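The authors hybridised Cy3-labelled RNA to Agilent Arabidopsis arrays and deposited the feature extraction output (version 11.5.1.1), in which each spot has a background-corrected intensity. They also deposited a table of log2 values, 99.7% of which lay within 0.05 of intensities scaled to the 75th percentile and centred per probe. No sequencing depth applies, and 2 arrays a group limit the precision.

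Control and outlier spots were left out, spots of a probe averaged, and log2 intensities quantile-normalised. A model of 4 group means on 8 arrays (4 residual degrees of freedom) was fitted in R 4.3.3 with limma 3.58.1. A probe entered where both arrays of any 1 group had it well above background. Benjamini-Hochberg adjustment ran over the 29618 probes left. Loci came from the accessions in the files, matched to RefSeq. Alternatives were 75th percentile scaling, normexp background (offset 50), the authors' table, other filters, a slide block, fewer samples, other variance models, the mean of probes, the methods' t-test, no fold limit and leaving out each array. Tested on simulated data for heat in Col-0, the fit recovered 78% of 200 probes made to change among 29458. These changes were 4-fold or 8-fold, and the noise was independent between arrays. The figure thus does not give the recovery near the 2-fold limit or with deviations shared by a slide.

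Replicate numbers matched slides, each with 1 array of every group, and deviations from the group means correlated on the same slide at r = 0.282 to 0.628 in all 6 pairs of groups. The members and lists were chosen with earlier results of these data known. Named were all members, BAM1, the 5 loci most like the brightest called member and, of each list, up to 4 loci called in Col-0 after heat with the largest change.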

Additional observations from a re-analysis of the deposited data

Results flagged for a closer look

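FLA10 went up on both slides in bam1 after heat, by 0.30 and 0.41 on the log2 scale, and down on both slides in Col-0, by -0.95 and -0.16, a mean difference of 0.908. The opposite directions in the genotypes drew attention to it. The difference was not tested, because the probe was not well above background on any of the 8 arrays, and with a signal of 4.567 to 11.49 its values carry no firm order.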

How the results depend on the processing

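The 8 called member changes kept their direction under all 21 alternatives that gave a value, and the sign changed for some alternatives in 17 of the 32 changes that were not called. With 75th percentile scaling or the authors' table, FLA9 was also called in bam1 (-1.21, adjusted P 0.0453 and 0.0454). With the slide as a replicate block the counts stayed at 5 in bam1 and 3 in Col-0, and 0 between the genotypes. Without a fold limit 5 members were called in Col-0, FLA8 and FLA11 being added. The methods' t-test called 5 and 3 before adjustment. After Benjamini-Hochberg it called 0 in either genotype, with adjusted P between 0.0726 and 0.146 for the called members, and 4 and 37 probes in all, against 6626 and 6389 in limma. With normexp 3797 and 3672 probes were called, and without a fold limit 10893 and 10515. Leaving out 1 array, the counts were 5 in bam1, 3 to 4 in Col-0 and 0 between the genotypes. FLA1 in bam1 was 0.0119 with normexp and -0.3945 to 0.0426 without 1 array, and FLA12 in Col-0 was -0.2212 to 0.5503. Without the filter on dim probes FLA6 was called in Col-0 (-2.12, adjusted P 0.0194), at signals not well above background on any array. A group with 1 array left was assumed to vary like the others. The dim probes of FLA2, FLA6 and FLA10 limit what their values show.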
